A study of Mus musculus with 18 samples.

Results

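Histone H3.3 was followed at 7 genes that mark cells other than neurons in the brain. Gpc5, Slc4a4 and Aldh1l1 are astrocyte genes, Tnr, Pdgfra and Megf11 are genes of oligodendrocyte precursors, and Vwf is an endothelial gene. They were chosen by the H3.3 counts themselves. In at least 1 of the authors' 2 lists of differential sites each has a site that the authors' annotation places in its gene body or promoter, so the values that follow are a description and carry no test. Of 2300 listed sites, 8 belonged to these genes. The susceptible list held 6 of its 1286 sites here, and the acute list 2 of its 1014. After re-exposure of susceptible mice H3.3 was lower at all 6 sites (Gpc5, Slc4a4, Aldh1l1, Tnr, Pdgfra, Vwf), as it was at 97.6% of all sites of that list. After acute stress it was lower at a site in Slc4a4 and higher at a site in Megf11, in a list with 46.6% lower and 53.4% higher sites.

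Chromatin immunoprecipitation with sequencing (ChIP-seq) of H3.3 was done on nucleus accumbens, part of the ventral striatum, from C57Bl/6J mice. Susceptible re-exposed mice had been through chronic social defeat and were scored as susceptible in a social interaction (SI) test 48 h later. At 28 days after the last defeat they met an aggressor for 5 min and were kept beside it for 55 min, 1 h in all. Acute stress mice were control animals given that same 1 h of stress, and control mice came straight from the home cage. The labels give 3 ChIP and 3 Input libraries for each condition, and tissue of 5 animals was pooled in each library. Susceptible re-exposed mice differ from controls in earlier defeat, in selection as susceptible and in the renewed stress, and these cannot be told apart in that comparison. Acute stress mice had the same 1 h without earlier defeat, and no direct comparison of the stress groups was made. Values came from 3 susceptible re-exposed and 2 control libraries in the susceptible list. In the acute list they came from 2 libraries of either group. The link between these values and the labelled libraries was not analysed here. At the 18 sites listed under identical coordinates in either list, the control reads were equal at 18, so the comparisons share their controls.

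H3.3 is a form of histone H3 that cells load onto DNA outside of replication, at promoters, enhancers and transcribed gene bodies. Because it needs no cell division, it turns over in neurons and in glia that have stopped dividing. Astrocytes buffer ions, acid and transmitters around synapses, oligodendrocyte precursors are the dividing glia that give rise to myelinating cells, and endothelial cells line the vessels of the blood-brain barrier. All of these cells were in the dissected tissue together with neurons. Bulk tissue therefore does not show from which cells a read came. Whether a lower count goes with cell numbers, H3.3 per cell or the depth of the libraries was not tested. The lists hold differential sites only, so the H3.3 level at the rest of each marker gene was not analysed here.

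The unit throughout is the authors' normalised read count of a site. A lone read counted for 0.828 to 1.63 normalised counts in susceptible re-exposed libraries and for 0.534 and 0.918 in their controls. It counted for 0.951 and 1.43 in acute stress libraries and for 0.657 and 1.08 in theirs. Reads recovered from these steps were pooled per group and divided by relative depth, and the ratio is given with an exact Clopper-Pearson 95% interval. Such intervals cover counting error only, not the spread between pools of animals. Nor do they allow for the listing of the sites by these same counts, so they are no test of a difference.

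Among the astrocyte genes, Gpc5 encodes glypican-5, a heparan sulfate proteoglycan of the cell surface that binds growth factors. Its site (mm10, chromosome 14, 116289401 to 116289650) lies far inside the gene body. It had 0, 1.66 and 2.94 normalised counts in susceptible re-exposed mice, against 12.85 and 9.61 in controls. The groups did not overlap, as at 100% of the lower sites of that list, and 1 susceptible library had no read at all. The means were 1.53 ± 1.47 (SD, n = 3) in susceptible re-exposed mice and 11.2 ± 2.29 (SD, n = 2) in controls. This rests on 4 susceptible and 32 control reads, a 6.76-fold lower level (95% counting interval 2.40 to 26.3). For this site a log2 fold change of -2.88 and an adjusted p of 0.00157 stand in the authors' deposited table. Without the first susceptible library the log2 fold change was -2.29, and without the third -3.76.

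Slc4a4 encodes the sodium bicarbonate cotransporter NBCe1, through which astrocytes take up bicarbonate and help to set the pH around synapses. It was the member with a site in both lists. The susceptible site (chromosome 5, 88937776 to 88938025) had 3.26, 1.66 and 0 normalised counts in susceptible re-exposed mice, against 10.09 and 10.14 in controls. The acute site (chromosome 5, 89162476 to 89162725) had 1.90 and 0 in acute stress mice, against 11.90 and 11.83 in controls. Both sites were thus well below controls, with 1 empty stress library each, but they are different places in the gene, 224450 bp apart. Neither list gives a value for the site of the other, and the shared controls make the pair of results dependent. The means were 1.64 ± 1.63 (SD, n = 3) in susceptible re-exposed mice and 10.1 ± 0.0354 (SD, n = 2) in controls at the first site, a 6.33-fold lower level (95% counting interval 2.23 to 24.7). At the second they were 0.95 ± 1.34 in acute stress mice and 11.9 ± 0.0495 in controls (SD, n = 2 each), a 10.4-fold lower level (2.63 to 89.8). The narrow control SDs go with values at the lower edge of what was listed. Over all lower sites the controls were never below 10.09 and 9.61 in the susceptible list, nor below 11.90 and 11.83 in the acute list. The authors' deposited tables give log2 fold changes of -2.63 for the susceptible site and -3.64 for the acute site, with adjusted p of 0.00176 and 0.00950. For the susceptible site the log2 fold change was -3.61 without the first susceptible library and -2.04 without the third. For the acute site it was -2.64 without the second acute stress library. Without the first, no acute stress read was left, and the level was at least 2.76-fold lower, set against a floor of 3 reads.

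Aldh1l1 encodes formyltetrahydrofolate dehydrogenase, an enzyme of folate metabolism that is widely used to mark all astrocytes. Its site (chromosome 6, 90569526 to 90569825) had 4.88, 2.48 and 0 normalised counts in susceptible re-exposed mice, against 12.85 and 11.21 in controls. The susceptible libraries were the most scattered of the astrocyte sites. The highest was below the lowest control, as at 100% of the lower sites of that list. The means were 2.45 ± 2.44 (SD, n = 3) in susceptible re-exposed mice and 12.03 ± 1.16 (SD, n = 2) in controls, on 6 and 35 reads, a 4.93-fold lower level (95% counting interval 2.05 to 14.3). Its log2 fold change was -2.29 in the authors' deposited table, with an adjusted p of 0.00182. It was -3.28 without the first susceptible library.

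Among the genes of oligodendrocyte precursors, Tnr encodes tenascin-R, an extracellular matrix protein of perineuronal nets made by cells of the oligodendrocyte lineage. Its site (chromosome 1, 159646726 to 159647000) had 1.63, 1.66 and 2.94 normalised counts in susceptible re-exposed mice, against 12.85 and 11.21 in controls. All 3 susceptible libraries held reads, but only 1, 2 and 2 of them, so their small spread rests on single reads. In all, 5 susceptible reads stood against 35 control reads. The means were 2.08 ± 0.748 (SD, n = 3) in susceptible re-exposed mice and 12.03 ± 1.16 (SD, n = 2) in controls, a 5.91-fold lower level (95% counting interval 2.31 to 19.3). Its log2 fold change was -2.54 in the authors' deposited table, with an adjusted p of 0.00139.

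Pdgfra encodes the receptor for platelet-derived growth factor A, the mitogen that keeps oligodendrocyte precursors dividing, and it is the gene most used to identify them. Its site (chromosome 5, 75151351 to 75151650) was the only 1 of the 8 in a promoter class, centred at -791 bp from the transcript start used by the authors. Of all lower sites in genes in that list, 11.1% were in promoters. It had 4.88, 1.66 and 5.87 normalised counts in susceptible re-exposed mice, against 11.93 and 14.41 in controls. H3.3 was lower here too, but every susceptible library kept reads, and the fold change was the smallest of the 6. The means were 4.14 ± 2.2 (SD, n = 3) in susceptible re-exposed mice and 13.2 ± 1.75 (SD, n = 2) in controls, on 9 and 40 reads, a 3.75-fold lower level (95% counting interval 1.79 to 8.80). Its log2 fold change was -1.67 in the authors' deposited table, with an adjusted p of 0.00285 and a p of 9.18e-05. That p is close to the largest of the list, 9.32e-05.

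The RefSeq span of Pdgfra starts 29 bp before this site, so the site lies at the very beginning of that span and in front of the start used by the authors. It ends 350 bp short of the 250 bases that precede the start in the RefSeq promoter table (GRCm38.p6, chr5:75152001-75152250, plus strand). Those bases are shown because this is the only promoter next to which a site fell. CG dinucleotides, the motif CG read on this strand and identical on the other, are in capitals:
Pdgfra: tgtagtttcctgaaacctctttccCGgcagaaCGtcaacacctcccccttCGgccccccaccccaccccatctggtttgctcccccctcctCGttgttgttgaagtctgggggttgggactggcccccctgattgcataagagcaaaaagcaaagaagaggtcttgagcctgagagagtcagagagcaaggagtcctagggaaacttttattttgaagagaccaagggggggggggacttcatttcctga
The window held 4 CG dinucleotides, against a median of 10 over 21263 windows of protein-coding genes, and 29.0% of those windows held fewer. Of the other members, RefSeq windows were at hand for Tnr (2 CG), Aldh1l1 (7), Gpc5 (12) and Slc4a4. The first Slc4a4 window held 44, more than 99.3% of windows, and the second held 3, more than 22.6%. None of the 8 sites overlapped any of the 6 windows of these genes. The promoter sequence of the site itself was not used here.

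Megf11 encodes a membrane protein with many EGF-like repeats that in the mouse retina spaces neurons of the same kind apart, and in brain it is expressed in oligodendrocyte precursors. It was the member at which H3.3 was higher. Its site (chromosome 9, 64610951 to 64611200) had 10.46 and 15.72 normalised counts in acute stress mice, against 3.24 and 1.97 in controls. Both acute stress libraries were above both controls, as at 100% of the higher sites of that list. The means were 13.1 ± 3.72 in acute stress mice and 2.60 ± 0.898 in controls (SD, n = 2 each). With 22 acute stress and 6 control reads, this was a 5.12-fold higher level (95% counting interval 2.01 to 15.4). Its log2 fold change was 2.33 in the authors' deposited table, with an adjusted p of 0.0138 and a p of 9.49e-05, near the largest listed p of 9.98e-05. No site of Megf11 was in the susceptible list.

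Vwf encodes von Willebrand factor, which endothelial cells store and release to tether platelets. Its site (chromosome 6, 125687101 to 125687375) had 0, 0.83 and 0 normalised counts in susceptible re-exposed mice, against 12.85 and 10.14 in controls. A lone read in 1 of 3 susceptible libraries stood against 33 control reads, the largest fold change of the 8 sites. The means were 0.277 ± 0.479 (SD, n = 3) in susceptible re-exposed mice and 11.5 ± 1.92 (SD, n = 2) in controls, a 27.9-fold lower level (95% counting interval 4.67 to 1134). Its log2 fold change was -5.38 in the authors' deposited table, with an adjusted p of 0.000367. Without the second susceptible library no susceptible read was left and the level was at least 4.81-fold lower, set against a floor of 3 reads. The log2 fold change was -4.79 without the first or the third. The authors' annotation calls the site gene body, but it starts 422 bp past the end of the RefSeq span of Vwf. The transcript used by the authors ends at the same base, so the site is past the end of that transcript too. The next gene, Ano2, begins 3044 bp beyond the site. Ano2, which encodes a calcium-activated chloride channel, carried a lower site of its own in the susceptible list (chromosome 6, 125826726 to 125826975). That site had 0, 4.14 and 0 normalised counts in susceptible re-exposed mice, against 11.93 and 9.61 in controls, and was the listed site nearest to the Vwf site, 139 kb away.

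**Figure D1:**
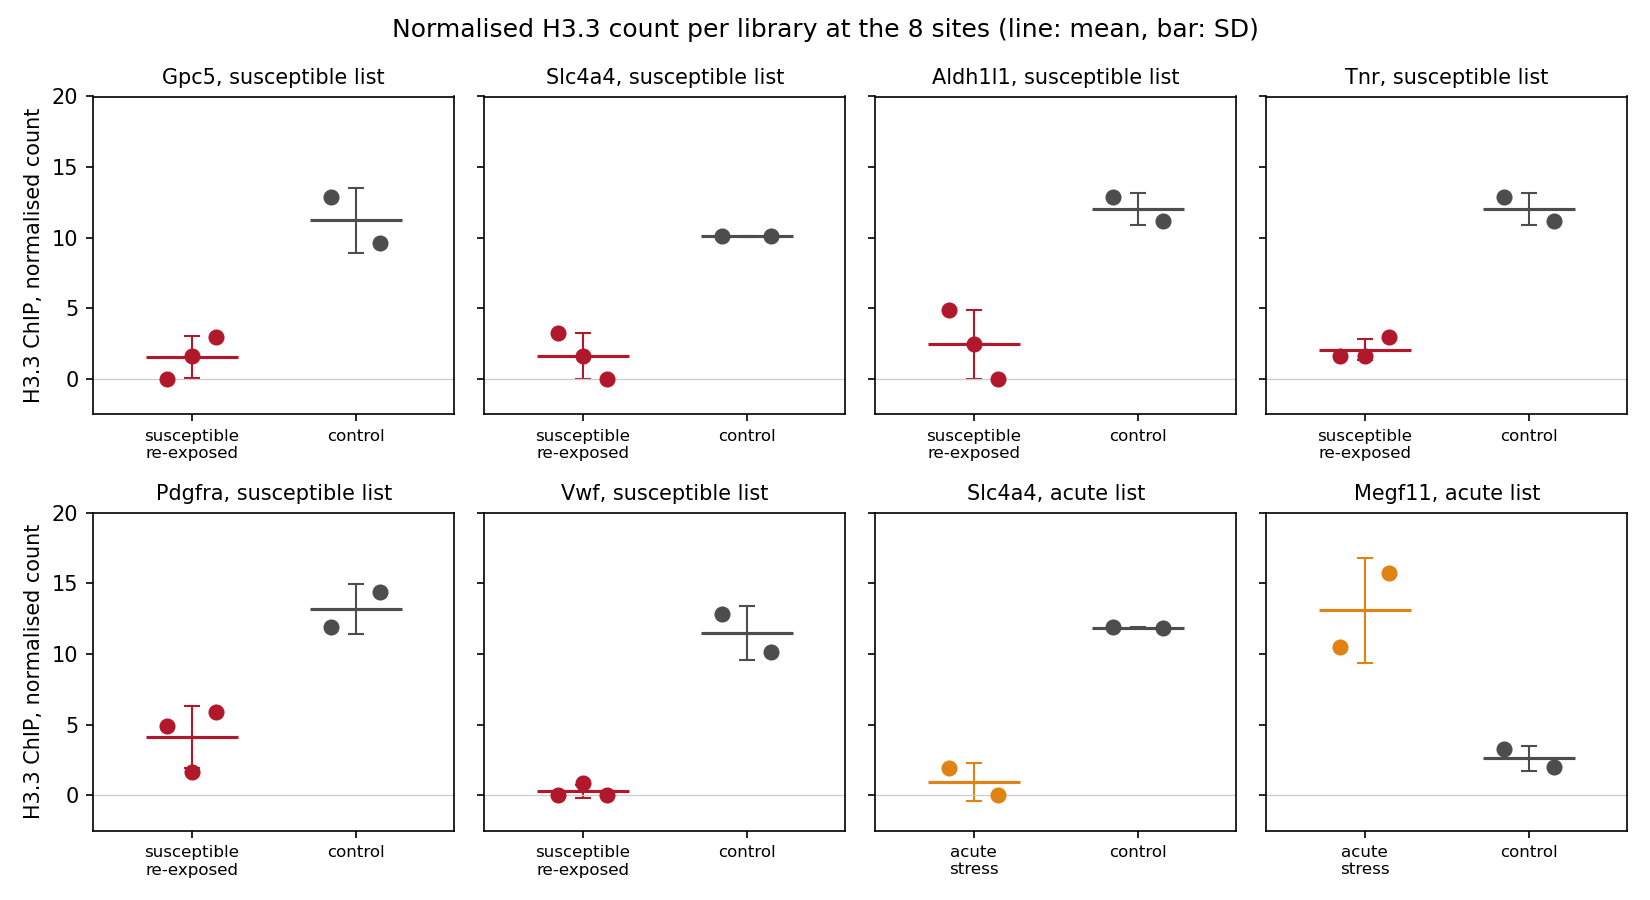
Normalised H3.3 count (vertical axis) in each library at the 8 sites, with the stress group to the left of the controls in each panel; points are libraries, lines means and bars SDs. Stress libraries lie below controls in 7 panels, from 0 to 5.87 normalised counts, and above them at the acute Megf11 site.

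Set side by side, the 6 susceptible sites had between 1 and 9 susceptible reads and between 30 and 40 control reads. Their mean levels ran between 0.277 and 4.14 normalised counts in susceptible re-exposed mice and between 10.1 and 13.2 in controls. The median of the authors' deposited log2 fold changes was -2.58 over the 6 sites and -2.42 over all 1255 lower sites of the list. By the size of the fold change Vwf ranked 2 of 1255, Gpc5 195, Slc4a4 385, Tnr 476, Aldh1l1 793 and Pdgfra 1243. In the acute list, Slc4a4 ranked 18 of 473 lower sites and Megf11 214 of 541 higher sites. Apart from Vwf near the top and Pdgfra near the bottom, the susceptible sites lay within the bulk of the list. The libraries of the groups did not overlap at any of the 8 sites, which also held for 100% of all lower sites in both lists and 100% of acute higher sites. Neither direction nor separation sets the 8 sites apart from the lists they were taken from.

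**Figure D2:**
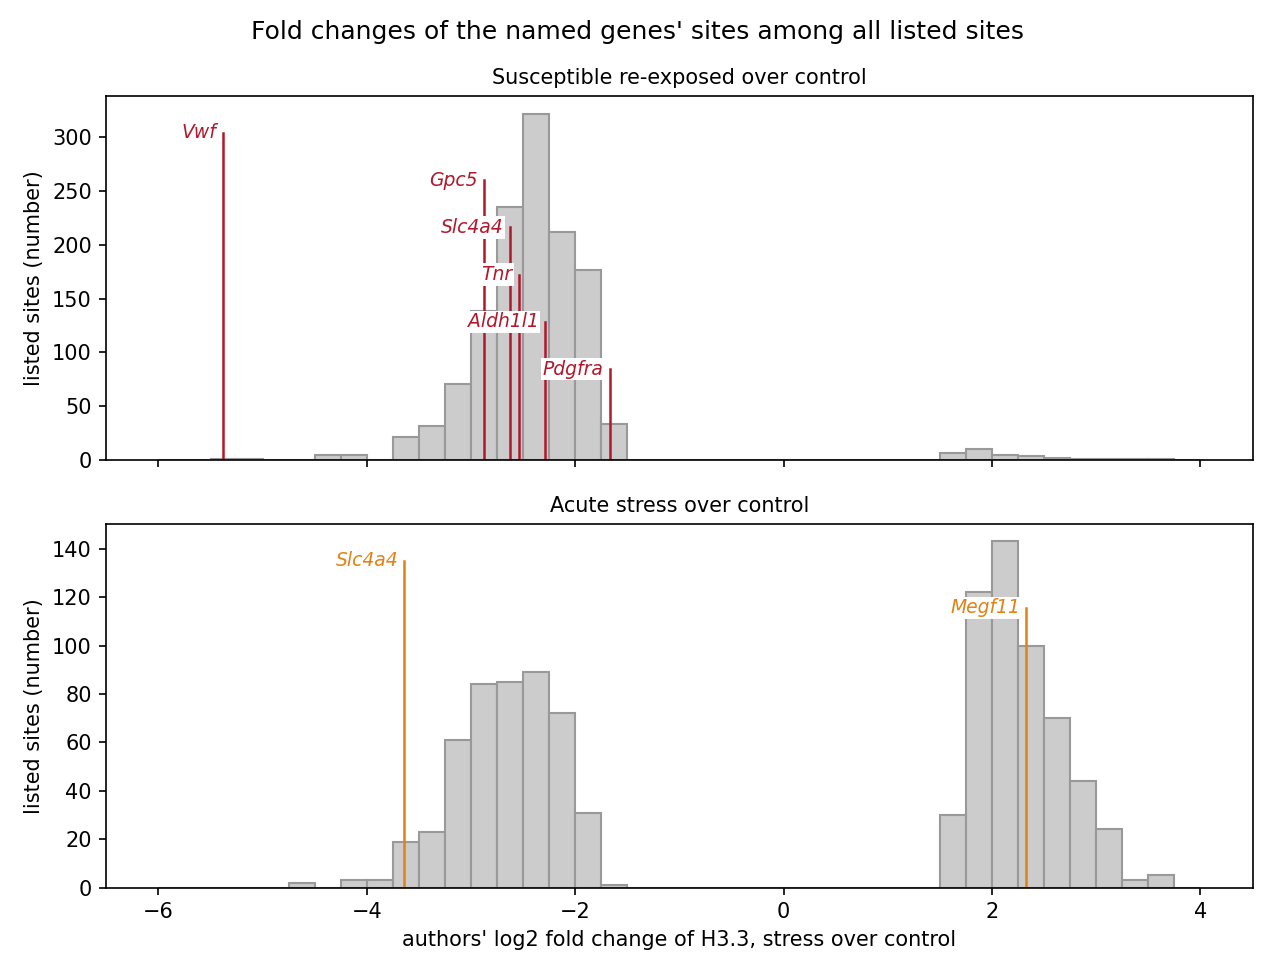
Number of listed sites (vertical axis) by the authors' log2 fold change, stress over control (horizontal axis), for the susceptible re-exposed comparison above and the acute comparison below, with the 8 sites marked by gene. The 1 site with an infinite fold change is not drawn; Vwf stands at -5.38, the other susceptible sites between -2.88 and -1.67.

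The authors' deposited tables also give an enrichment ratio per group, whose denominator was not given in the labels or headers read here. In controls it was listed as infinite at all 6 susceptible sites, against 60.3% of all lower sites of that list. In susceptible re-exposed mice it was 2.88 at Tnr, 2.18 at Slc4a4, 2.14 at Gpc5, 0.56 at Pdgfra, 0.31 at Aldh1l1 and 0.18 at Vwf. In these mice the ratio was thus above 1 at 3 sites and below 1 at the others. The share above 1 over all lower sites was not worked out, so this split is a description only. The ratio was infinite in these mice at none of the 6 sites, against 10.4% of all lower sites of that list. At both acute sites it was listed as infinite in acute stress mice and in controls alike, so it gives no difference there. Over all lower acute sites it was infinite in acute stress mice at 37.2% and in controls at 55.0%, and over all higher acute sites in acute stress mice at 41.0% and in controls at 60.4%.

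Within their genes the sites were spread out. The Gpc5 site lay 1197 kb from the transcript start, at 83.5% of the RefSeq span, and the acute Slc4a4 site at 82.7%. The Megf11 site lay at 68.6%, the Aldh1l1 site at 39.1%, the susceptible Slc4a4 site at 32.3% and the Tnr site at 30.2%. The median gene body site of the susceptible lower list was 66.6 kb from its start, that of the acute lower list 68.9 kb and that of the acute higher list 46.5 kb. Distances of 123 kb for Tnr, 225 kb for Megf11 and 275 kb for the acute site of Slc4a4 were larger, and those of 18.8 kb for Aldh1l1 and 50.6 kb for the susceptible site of Slc4a4 smaller. The nearest other site of the same list was between 139 kb (Vwf) and 2851 kb (acute Slc4a4) away, and none overlapped a site of the other list.

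**Figure D3:**
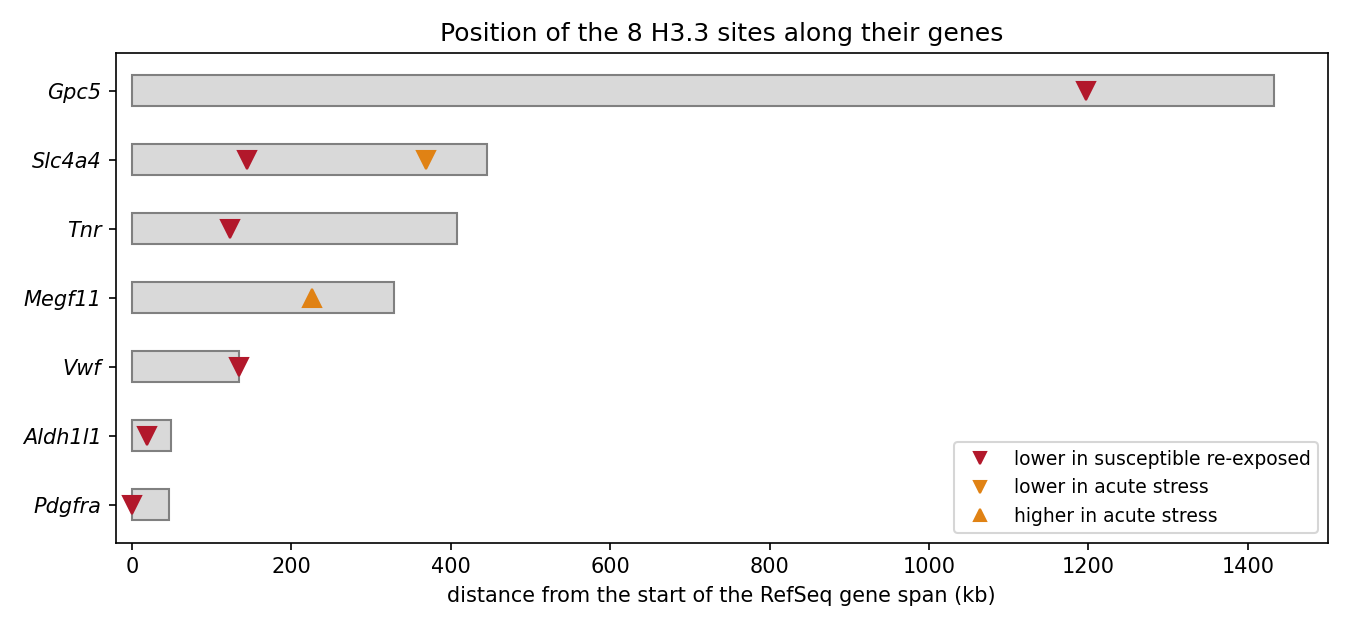
RefSeq gene spans (grey bars, length in kb from the start of the gene) with the sites as triangles, pointing down for lower and up for higher H3.3. Pdgfra has its site at the very start, Vwf just past the end, and Gpc5 at 83.5% of its span.

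Gene length was read beside these positions. The median RefSeq span of the 7 genes was 329 kb, against 17.1 kb for 21900 protein-coding genes. Gpc5 spans 1433 kb, and 17 protein-coding genes are longer. Over all protein-coding genes 2.56% carried a lower site in the susceptible list, 1.09% a lower site in the acute list and 1.05% a higher one. Among genes of 300 kb or longer these shares were 31.4%, 15.1% and 11.8%. Gpc5, Slc4a4, Tnr and Megf11 fall in that class. In the class under 50 kb, which holds Aldh1l1 and Pdgfra, the susceptible share was 0.702%, and between 100 and 300 kb, which holds Vwf, it was 9.24%. A site in a long gene is thus common in both lists, and length was not tested as a part of these results.

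**Figure D4:**
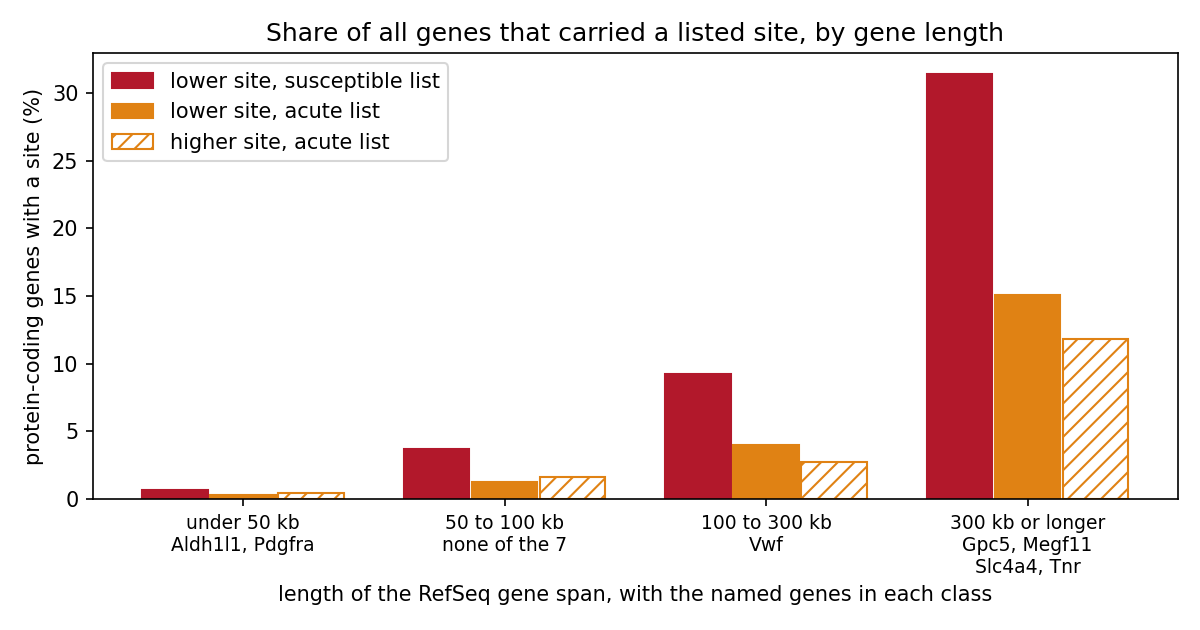
Share of protein-coding genes with a listed site (vertical axis, percent, from 0) by length of the RefSeq gene span (horizontal axis), for lower sites in the susceptible list and for lower and higher sites in the acute list. The shares reach 31.4%, 15.1% and 11.8% in genes of 300 kb or longer, where 4 of the 7 genes fall.

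The other markers of the same cells were read from lists of genes. Of 22 astrocyte genes, 3 had a lower site in the susceptible list, the members Gpc5, Slc4a4 and Aldh1l1, and 1 had a lower site in the acute list, Slc4a4. No listed site fell in the other astrocyte genes, among them Gfap of the astrocyte cytoskeleton, the water channel gene Aqp4 and the glutamate transporter genes Slc1a2 and Slc1a3. Of 13 genes of oligodendrocyte precursors, Tnr and Pdgfra had a lower susceptible site and Megf11 a higher acute site, and the lineage factors Olig1, Olig2 and Sox10 had none. Of 16 endothelial genes 1 had a site, Vwf, whereas the junction gene Cldn5 and the adhesion gene Pecam1 had none. The lists of 8 mural, 12 oligodendrocyte and 12 microglial genes had no site in either list. Of all protein-coding genes, 2.56% had a lower susceptible site, 1.09% a lower acute site and 1.05% a higher acute site. Lists this short can hold none at such shares, so these absences show nothing particular to a cell type. Median RefSeq spans were 18.5 kb for the astrocyte, 34.8 kb for the precursor, 44.6 kb for the endothelial, 40.1 kb for the mural, 16.4 kb for the oligodendrocyte and 8.98 kb for the microglial list. The members were in the lists because they had sites, so these counts are a description beside the shares over all genes given above.

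Relatives of the members were looked at by family. In the platelet-derived growth factor family, 2 of 6 genes had a lower site in the susceptible list, Pdgfra and the ligand gene Pdgfd, and 1 had a higher site in the acute list, the ligand gene Pdgfa. Over all protein-coding genes these shares were 2.56% and 1.05%. Pdgfd spans 366 kb and so falls in the class of 300 kb or longer, with its susceptible share of 31.4%, and Pdgfra was counted because it has a site. The Pdgfd site (chromosome 9, 6223476 to 6223775) had 1.63, 2.48 and 0 normalised counts in susceptible re-exposed mice, against 15.60 and 11.21 in controls. The authors' deposited table puts its log2 fold change at -3.29. The Pdgfa site (chromosome 5, 138987051 to 138987375) had 15.21 and 17.15 normalised counts in acute stress mice, against 5.41 and 3.29 in controls and its log2 fold change was 1.90, again from the authors' deposited table. PDGF-A is the ligand of the receptor that Pdgfra encodes, while PDGF-D acts mainly on the beta receptor, whose gene Pdgfrb had no site.

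Of 10 bicarbonate transporter genes of the Slc4 family, Slc4a4 had its lower sites and Slc4a8, which encodes a sodium-driven chloride bicarbonate exchanger of neurons, had a higher site in the acute list. The Slc4a8 site had 13.31 and 17.15 normalised counts in acute stress mice, against 2.16 and 4.60 in controls, and the authors' deposited table gives a log2 fold change of 2.17. In the acute list Slc4a4 thus had a lower and Slc4a8 a higher site, in a list with 46.6% lower and 53.4% higher sites. Over all protein-coding genes 2.56% had a lower susceptible site, 1.09% a lower acute site and 1.05% a higher acute site. Slc4a4 was counted because it has a site. Among 6 glypicans, 8 tenascins and lecticans, 5 genes of the MEGF family, 2 of the Aldh1l family and 7 for von Willebrand factor, its protease and its receptors, the members Gpc5, Tnr, Megf11, Aldh1l1 and Vwf were the only ones with a site. These members too were counted because they have a site, and at the shares just given small families can hold no other.

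The genic sites most like each member were those with the smallest Euclidean distance of log2(normalised count + 1) over the libraries of the list. Over 5 libraries, the nearest to Gpc5 was a site of Grm7 (distance 0.122), to Tnr of Ldlrad4 (0.165), to Pdgfra of Ntrk3 (0.191), to Aldh1l1 of Spic (0.0992) and to Vwf of Cdk14 (0.328). The next nearest was a site of Notch1 for Gpc5 (0.179), of Nrg3 for Tnr (0.178), of Bivm for Pdgfra (0.376), of Ash1l for Aldh1l1 (0.118) and of Esr2 for Vwf (0.549). At such low counts some sites cannot be told apart by their values. The susceptible site of Slc4a4 had the same 5 values as 3 other listed sites, among them 1 in Ctnnd2, and lay 0.0683 from a site of Lama3. The acute site of Slc4a4 shared its 4 values with 7 others, among them sites of Ankrd33b and Spink10, and the Megf11 site with 2 others, 1 of them in Alox8. A site of Serpina12 lay 0.221 from the Megf11 site.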

How the data were processed

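Per the labels' protocols, sequencing libraries of H3.3 ChIP and Input DNA came from Illumina's TruSeq kit. The submitters' processing notes name Bowtie2 2.2.0 and SAMtools 0.1.19, with mm10 as the build. The 2 deposited tables list differential sites from diffReps with 250 bp windows, per the table names. No source used here states its version, test or normalisation. The authors deposited normalised counts per library (joined in 1 cell), their mean signal per group, an enrichment ratio, a log2 fold change, and a p-value with its adjusted p.

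Every listed p is under 0.0001. Members were rows whose gene name, without any number suffix, was 1 of the 7 and whose class was gene body or promoter. Members, lists and length classes were chosen with earlier results of these data known. Within a library, values were whole multiples of 1 step (whole within 0.02 reads for 99.8% to 100% of values). In data simulated as whole reads times these steps, 100% of reads were recovered, over 1286 susceptible and over 1014 acute sites. Whole multiples were built into that simulation, so it cannot show that the deposited values are whole reads. No count model was fitted, because listed sites alone were at hand. Library totals were not used here. Of 3 control ChIP libraries, the tables hold 2, and of 3 acute stress libraries, 2. The labels call the replicates biological. RefSeq genes and promoters were those of GRCm38.p6, the build of mm10. By rule, named genes were the members, list genes with a site, and the 2 nearest genic sites of each member site. List genes without a site and Ano2 were named after their values were seen. Python 3.11.15, pandas 2.3.3, numpy 2.4.6 and scipy 1.17.1 were used.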

Additional observations from a re-analysis of the deposited data

How the results depend on the processing

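With the authors' p under 0.00001, 1 member (Vwf) kept a site in the susceptible list, and 0 members in the acute list. By p, Vwf ranked 1 and Tnr, the next member, 334 of 1255 lower sites of the susceptible list. Shares over all listed sites or genes were not worked out for the stricter p or for the overlap rules that follow. These counts therefore show nothing particular to the members. With genes assigned by overlap with the RefSeq span, by 1 bp or by 50% of the site, 5 members had a susceptible site (Vwf dropped out, since its site lies past the gene) and 2 an acute site. The median log2 fold change of the 6 susceptible sites was -2.58 as deposited, -2.08 with a pseudocount of 1 and -2.48 from pooled reads plus 0.5. With 1 library left out it lay between -2.83 and -2.46. No median is given for the acute list, which held 1 site in each direction. All 52 values of single sites under these alternatives kept their direction. Leaving out a library or adding a pseudocount could not reverse it, because the libraries of the groups did not overlap at any of these sites. Leaving out 1 library moved the fold by over 1.5 times in 8 of 36 settings, at Gpc5, Slc4a4, Aldh1l1 and Vwf. Where leaving out a library left no stress reads (Vwf, acute Slc4a4), bounds were given in place of a fold. No paired analysis was possible because the value columns carry no replicate numbers. Each site rests on 28 to 49 reads. Differences between members in the size of the change were not tested, and the lists hold only sites with the authors' p under 0.0001, so sites with a larger p are missing whatever their fold.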

Other observations

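Genes of medium spiny neurons, the main cells of the nucleus accumbens, were read from a list of 16 for comparison with the glial and vascular lists. In the susceptible list 3 of them had a lower site. Gnal, the gene of a striatal G protein acting downstream of dopamine receptors, had 3.26, 3.31 and 2.94 normalised counts in susceptible re-exposed mice, against 13.76 and 13.35 in controls. Foxp1, a transcription factor gene of striatal neurons, had 1.63, 4.14 and 1.47 in susceptible re-exposed mice, against 11.93 and 12.81 in controls. Meis2, a homeobox gene, had 0, 4.14 and 2.94 in susceptible re-exposed mice, against the same control values of 11.93 and 12.81. The log2 fold changes in the authors' deposited table were -2.10, -2.36 and -2.39. In the acute list Foxp2, a relative of Foxp1, had 3.80 and 0 normalised counts in acute stress mice, against 15.14 and 13.14 in controls. In the susceptible list lower sites were thus counted in 3 of 16 genes of medium spiny neurons, 3 of 22 of astrocytes, 2 of 13 of oligodendrocyte precursors and 1 of 16 of endothelium, against 2.56% of all protein-coding genes and 31.4% of those of 300 kb or longer. Foxp1 spans 597 kb, Gnal 138.5 kb and Meis2 206 kb, and of genes of 100 to 300 kb 9.24% had a lower susceptible site. The median RefSeq span of the medium spiny neuron list was 70.3 kb. That is longer than the 18.5 kb of the astrocyte, 34.8 kb of the precursor and 44.6 kb of the endothelial list. The 6 glial and vascular genes are the ones chosen for having a site, and the endothelial one is Vwf, whose site lies past the end of the gene. The difference between the lists was not tested.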
